A study of Caenorhabditis elegans with 2 samples.

Results

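In Caenorhabditis elegans, peaks of the predicted C2H2 zinc finger protein M03D4.4 that lay between the promoters of divergently transcribed genes were described here. Chromatin immunoprecipitation and sequencing (ChIP-seq) had been done with an anti-GFP antibody on sonicated chromatin of strain OP696, genotype unc-119(tm4063) III; wgIs696, which stably carries M03D4.4 with a C-terminal GFP-FLAG tag. Mixed-stage embryos of pooled sexes were collected 2 h after synchronization by egg bleaching, and 2 biological replicates formed the only group. Both replicates therefore carry the tagged transgene and the unc-119 mutation, the embryos hold every cell type at once, and no untagged or otherwise tagged strain was analysed here. Binding of M03D4.4 can thus not be told apart from chromatin that is recovered whichever protein is tagged. The authors' list thresholded on the irreproducible discovery rate (IDR) comprised 1443 ce11 peaks, of which 1423 were nuclear. The signal of a peak is the authors' own value, its scaling is unknown, and the files hold no read counts, so depth is unknown.

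A peak was a member where its summit was within a window of 1000 bp before and 500 bp after the annotated 5' end of at least 1 plus-strand and at least 1 minus-strand protein-coding gene, with no tRNA gene within 500 bp. Of the 1197 nuclear peaks away from tRNA genes, 215 met this rule (17.96%, exact 95% interval 15.8 to 20.3%). Another 441 lay in the windows of genes of a single strand, called one-direction promoter peaks here, and they serve as the side-by-side reference. Divergent peaks were 32.8% of these 656 promoter peaks (29.2 to 36.5%). In all 215 cases the minus-strand 5' end lay to the left of the plus-strand 5' end, so that the nearest genes point away from each other, and 214 of the peaks belonged to genes that are direct neighbours. The 215 peaks fell on 211 distinct pairs and 422 distinct genes. Intervals cover counting error only, peaks are not replicates of a condition, and no test across peaks was made.

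Divergent gene pairs share a short stretch of DNA from which transcription starts in both directions, so that a factor bound there lies upstream of both genes. In C. elegans many messages are trans-spliced, and the annotated 5' end of such a gene is often the spliced-leader site rather than the start of transcription. In mammals, where the arrangement is best studied, it is common among widely expressed genes. C2H2 zinc finger proteins contact DNA through small zinc-stabilized folds that each read a few neighbouring bases.

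The sequences under the 4 strongest summits are shown first, because short words rich in G and C recurred in them. Each is the plus strand of ce11 from 50 bp left to 50 bp right of the summit, ending at a gene's 5' end where one was closer. Capitals mark any of 12 words of 7 bases, on either strand, that were found at 20 or more divergent summits and at least 5 times as often as in flanking sequence. The words were picked from these same windows, so their presence is a description and not a test. The stretches are chrIII:10461275-10461375 between ecps-1 and atx-2, chrIII:10759181-10759281 between K01G5.10 and tasp-1, chrIV:390469-390552 between ears-2 and uncp-18, and chrIII:4568684-4568784 between mlcd-1 and idhg-1. A ribosomal protein promoter, chrIV:4750015-4750115 at rpl-20, and a histone promoter, chrIV:7486352-7486452 between his-61 and his-62, are added for contrast.
ecps-1 and atx-2: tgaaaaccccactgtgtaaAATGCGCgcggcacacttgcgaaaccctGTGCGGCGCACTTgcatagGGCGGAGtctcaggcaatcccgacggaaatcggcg
K01G5.10 and tasp-1: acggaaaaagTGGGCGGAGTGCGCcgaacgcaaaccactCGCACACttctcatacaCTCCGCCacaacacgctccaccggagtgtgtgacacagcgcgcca
ears-2 and uncp-18: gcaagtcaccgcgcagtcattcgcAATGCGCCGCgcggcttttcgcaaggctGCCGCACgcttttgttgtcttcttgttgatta
mlcd-1 and idhg-1: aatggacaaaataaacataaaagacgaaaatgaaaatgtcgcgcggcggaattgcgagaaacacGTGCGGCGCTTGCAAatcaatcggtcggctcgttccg
rpl-20 and Y17G9B.5: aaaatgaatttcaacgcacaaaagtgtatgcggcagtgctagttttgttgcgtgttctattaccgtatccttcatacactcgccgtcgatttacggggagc
his-61 and his-62: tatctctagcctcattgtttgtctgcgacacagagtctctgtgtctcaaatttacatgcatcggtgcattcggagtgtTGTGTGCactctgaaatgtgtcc

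Of the 12 words 6 were in the printed stretch of atx-2, 4 in that of tasp-1 and 3 each in those of ears-2 and idhg-1. The full window of ears-2, which reaches beyond its printed stretch and is used in the counts below, also held CTTGCAA. The windows of rpl-15, nmad-1 and rpl-20, next in order of signal, each held 0 of the 12. The his-61 window held 1, so strong peaks were also found without most or all of them.

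The strongest divergent peak lay between ecps-1 and atx-2, the gene of the RNA-binding protein ataxin-2, on chromosome III. Its signal was 621 in replicate 1 and 537 in replicate 2, and 1155 in the IDR list, where it ranked 14 among the nuclear peaks. The summit was 64 bp upstream of atx-2 and 774 bp upstream of ecps-1. The second lay between K01G5.10 and tasp-1, the gene of a threonine aspartase, with 518 in replicate 1 and 462 in replicate 2. It stood 76 bp upstream of tasp-1. Both summits thus sat close to the plus-strand gene and far from its partner.

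The third, between ears-2, which encodes a mitochondrial glutamyl-tRNA synthetase, and uncp-18, had 507 in replicate 1 and 473 in replicate 2. Only 92 bp separate the 5' ends of these genes, and the summit was 34 bp from the first and 58 bp from the second. The next in order lay 63 bp upstream of idhg-1, the gene of an isocitrate dehydrogenase subunit of the citric acid cycle, and 604 bp upstream of mlcd-1. It had 509 in replicate 1 and 426 in replicate 2. The one after it, at the ribosomal protein gene rpl-15 and K11H12.8, stood 344 bp from the first and 470 bp from the second, with 519.5 in replicate 1 and 423 in replicate 2. For 3 of these 5 the summit was therefore within 100 bp of a 5' end, on the plus-strand side of a long shared promoter, and for ears-2 it was near both.

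Peaks 6 to 10 of the 20 strongest without a small RNA gene nearby lay at metabolic, translation, folding and histone genes. The peak of nmad-1 and hach-1, a hydrolase gene of valine breakdown, had 425 in replicate 1 and 374 in replicate 2. That of rpl-20 and Y17G9B.5 had 384 and 328 in the same order. The peak between dnj-29, a DnaJ co-chaperone gene, and ndua-2, a subunit gene of respiratory complex I, had 352 and 359.6. It was the only peak of the 20 that was higher in replicate 2. The peak of rnf-121, a RING finger gene, and C16C10.4 had 399 and 275, and that of his-67 and his-68, both histone genes, had 331 and 328.

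The other 10 ran from 609 in the IDR list between E04F6.6 and pcrg-1 down to 474 between piit-1 and sas-5, a centriole assembly gene. They included the peak between Y22D7AL.10 and hsp-60, the mitochondrial chaperonin gene, with 290 in replicate 1 and 288 in replicate 2. Its summit was 182 bp from the first and 631 bp from the second. Also among the 10 were snr-1, a core spliceosomal Sm protein, and its neighbour snx-13, a sorting nexin (255 and 227). That summit was 188 bp from snx-13 and 423 bp from snr-1. Another lay at dad-1, a subunit of the oligosaccharyltransferase, and the trehalase gene tre-1 (304 and 266), 404 bp from the first and 35 bp from the second. Chemoreceptor genes stood on the plus-strand side of a pair of these peaks. The summit shared by rsr-1, which encodes a splicing-related SR protein, and sri-5 lay 487 bp from the first and 245 bp from the second. That shared by B0495.9 and sre-1 lay 51 bp from the first and 943 bp from the second.

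**Figure D1:**
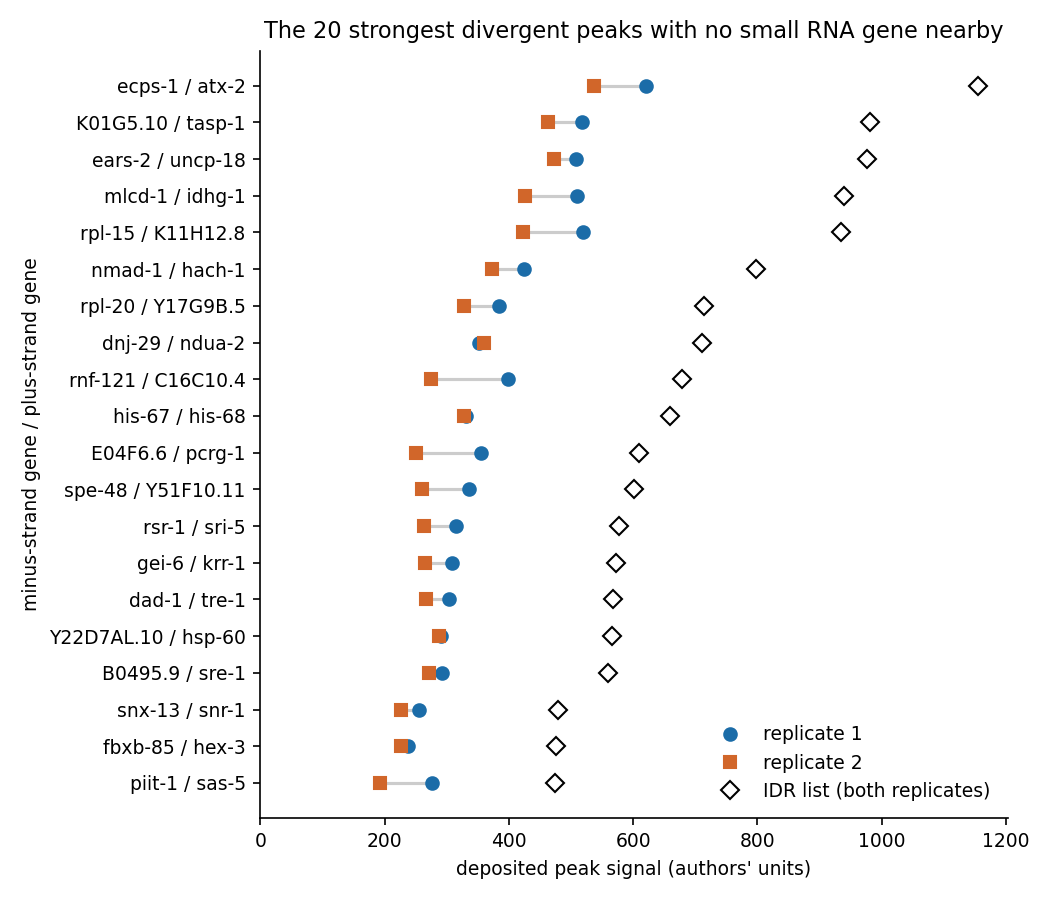
Deposited signal (x axis, the authors' units) of the 20 strongest divergent peaks with no small RNA gene within 500 bp, one row per gene pair. Circles are replicate 1, squares replicate 2 and open diamonds the IDR list made from both, and the replicates lay closest at his-67 and his-68 (331 and 328).

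Across all 215 members the signal in the IDR list ranged from 147 to 1155, with a median of 213 and quartiles at 172 and 308. One-direction promoter peaks had a median of 202 and peaks outside promoters 185, so the median of divergent peaks was 0.08 higher than that of one-direction peaks on the log2 scale, a gap far smaller than the spread within either class. It was 0.14 with a window of 500 bp upstream or without peaks near any small RNA gene. The strongest peaks were not concentrated in divergent promoters. Of the 215 members 13 were among the 100 strongest nuclear peaks (6.05%), against 27 of the 441 one-direction peaks (6.12%).

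In replicate 1 the members ran from 55.5 to 621 with a median of 121, and in replicate 2 from 37.6 to 537 with a median of 102. Signal was lower in replicate 2 for 161 of the 215 members (74.9%), with a median log2 difference of replicate 2 from replicate 1 of -0.19 and an SD of 0.39. One-direction peaks had a median difference of -0.20 and an SD of 0.51. Since the scaling is not given, the size of this shift has no known meaning. More than a 2-fold gap between replicates was seen at 7 members (3.26%) and at 31 one-direction peaks (7.03%). The members with the widest gap were the peaks of klp-19 and slc-36.1 (115.3 in replicate 1, 37.6 in replicate 2), of cdc-6, a replication licensing gene, and acin-1 (121 and 40.02), and of polh-1, a translesion polymerase gene, and rps-22 (123 and 42.4). These peaks were named after their values were seen, and they rest mainly on replicate 1. Every member overlapped a peak of both replicate lists by at least 50%, but the IDR list was derived from those lists. Among the 1423 strongest peaks of each replicate taken alone, 153 of the 215 were found in both (71.2%, 64.6 to 77.1%), and 289 of the 441 one-direction peaks (65.5%, 60.9 to 70.0%).

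Divergent promoters held more summits per length than promoters of a single direction. The windows that qualify as divergent cover 2.78 Mb and held 77.3 summits per Mb, while the one-direction windows cover 23.5 Mb and held 18.7 per Mb, a ratio of 4.12. With a window of 500 bp upstream the ratio was 7.34. Divergent sequence lies on average closer to a 5' end, so the densities were also set side by side at equal distance from the nearest 5' end. From 0 to 100 bp upstream they were 171 and 28.6 summits per Mb for divergent and one-direction windows, from 100 to 200 bp 213 and 52.5, and from 200 to 300 bp 197 and 52.8. From 300 to 500 bp they were 58.1 and 23.5, and from 500 to 1000 bp 32.2 and 15.3. Past the 5' end, inside the gene, they were 15.2 and 5.47. Divergent windows were thus denser in each of these 6 distance ranges. By the rule, divergent positions lie in windows of genes of both strands, and one-direction positions in those of a single strand. Equal distance to the nearest 5' end does not even out this difference between the classes. Its part in the ratio was not tested.

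Seen from the genes, 210 of the 2536 neighbouring head-to-head pairs with 5' ends up to 2000 bp apart held a divergent peak (8.28%, 7.24 to 9.42%). The share varied with the distance between the 5' ends. It was 7.80% below 250 bp (29 of 372 pairs), 14.5% from 250 to 500 bp (79 of 543), 10.1% from 500 to 750 bp (48 of 475) and 10.3% from 750 to 1000 bp (36 of 350). It was 3.35% from 1000 to 1500 bp (16 of 477) and 0.627% from 1500 to 2000 bp (2 of 319). The low shares beyond 1000 bp follow in part from the rule, since both 5' ends must be within 1000 bp of a summit. The interval of the 250 to 500 bp range, 11.7 to 17.8%, did not overlap that of the shortest range, 5.28 to 11.0%. Pairs at shorter distances also offer less sequence between the 5' ends for a summit, and its part in this contrast was not tested. The median distance was 485 bp in the members, with quartiles at 322 and 750 bp, and 701 bp in the pairs without a peak. On the count of genes, 872 of 19973 protein-coding genes (4.37%) had a summit away from tRNA genes in their window, and 422 of them (2.11% of all) were the nearest gene on either strand of a divergent peak.

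**Figure D2:**
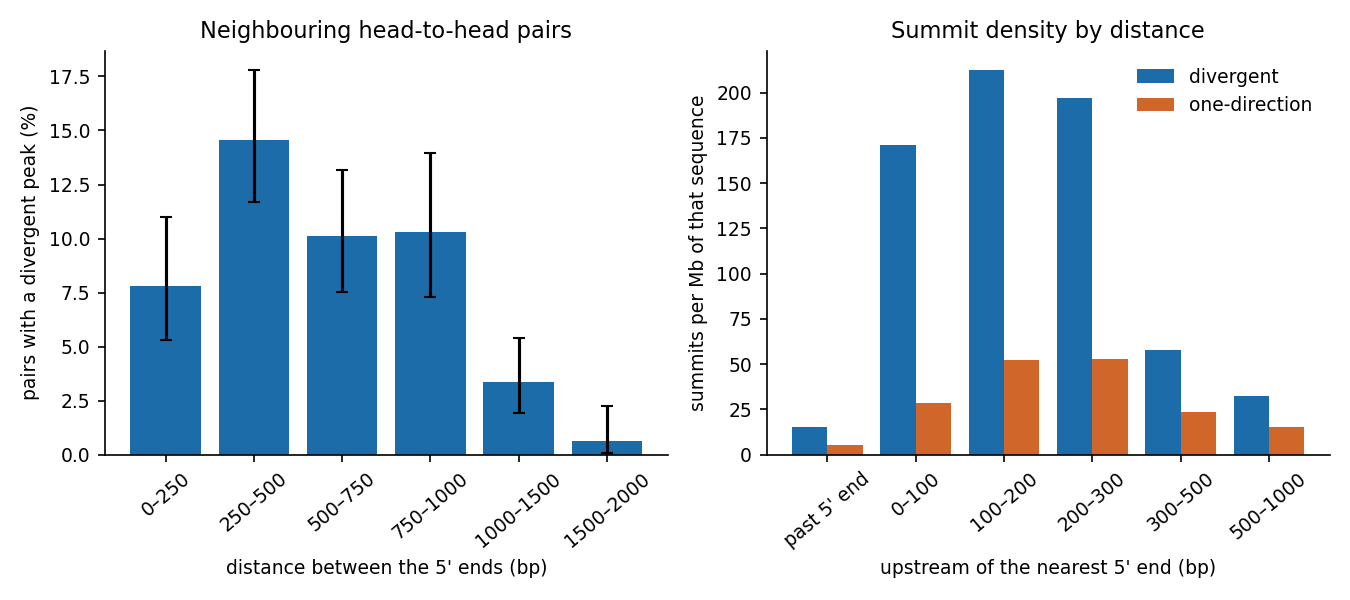
Left, share of neighbouring head-to-head gene pairs with a divergent peak (y axis, %) by distance between their 5' ends (x axis, bp), with exact 95% intervals as bars, highest at 14.5% from 250 to 500 bp. Right, summits per Mb of divergent and one-direction promoter sequence (y axis) by distance upstream of the nearest 5' end (x axis, bp), with divergent windows at 171, 213 and 197 per Mb in the first 300 bp.

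The shortest distance belonged to Y59E9AL.36 and nbet-1, a SNARE gene of vesicle traffic, whose 5' ends are 20 bp apart. Its summit lay 143 bp inside nbet-1, where replicate 1 gave a signal of 79.2 and replicate 2 one of 75.9. It was followed by Y57E12AL.6 and Y57E12AL.1 at 60 bp, with 128 in replicate 1 and 207 in replicate 2, and then ears-2 and uncp-18 at 92 bp. The longest distance, 1659 bp, belonged to mif-4 and ipla-6 (84.6 in replicate 1, 66.1 in replicate 2). Next was 1541 bp at pld-1, a phospholipase D gene, and C04G6.2 (79.0 and 88.2), and by 1482 bp at let-70, a ubiquitin-conjugating enzyme gene, and klc-1, a kinesin light chain gene (109 and 55.5). A snoRNA gene lay 229 bp from this last summit. The 3 pairs of longest distance all had signals below the median of the members, and those of shortest distance ranged from one of the weakest to the third strongest peak.

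Summits sat mostly between the genes and lay about equally often nearer to the gene of either strand. In 194 of the 215 members the summit lay between both 5' ends (90.2%, 85.5 to 93.9%), while 10 lay past the plus-strand and 11 past the minus-strand 5' end. The plus-strand gene was nearer for 109 members and the minus-strand gene for 106. The nearer 5' end was at a median of 159 bp and the farther at 353 bp, and the summit was a median of 96.5 bp from the middle of the pair. For 88 members (40.9%) both 5' ends lay within 300 bp. The distance to the threshold of the rule was short for few members. In 8 of them the farther 5' end lay more than 900 bp away (signals from 154 to 559), and a window of 1100 bp would have added 13 peaks (signals from 170 to 1458).

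**Figure D3:**
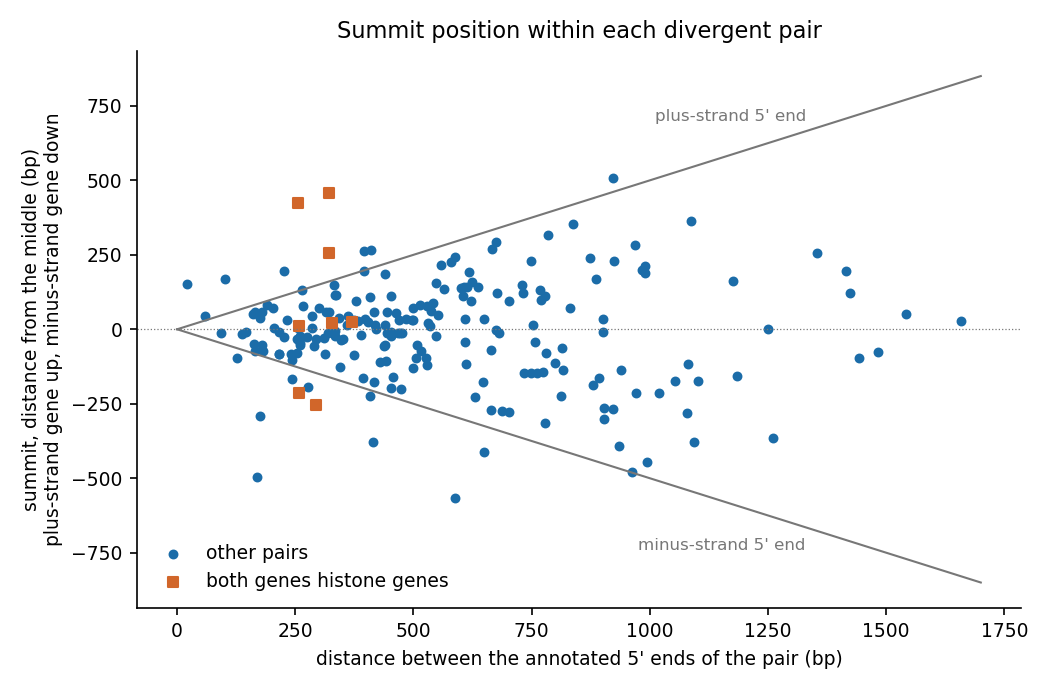
Position of each divergent summit relative to the middle of its gene pair (y axis, bp, plus-strand gene upward) against the distance between the 5' ends (x axis, bp). Points are peaks, the solid lines mark both 5' ends, 194 of 215 summits lie between them, and squares mark the 8 peaks at histone pairs, of which 5 lie outside.

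Histone pairs often had their summit outside the shared promoter. Core histone genes of C. elegans lie in clusters of head-to-head genes that are expressed while DNA replicates. Of the 78 genes of the histone list 65 are in head-to-head pairs, and 12 of these, forming 6 pairs, carried 8 divergent peaks, which is 18.5% of the 65 genes (9.92 to 30.03%) beside 8.30% of all 5072 coding genes in such pairs. Each of these 12 genes shares its peak with another histone gene. Counted by pairs, 6 of the 34 pairs with a histone gene had a peak (17.6%, 6.76 to 34.5%), an interval that includes the 8.28% of all pairs. At his-67 and his-68 (331 in replicate 1, 328 in replicate 2) and at his-61 and his-62 (229 and 218) a single summit lay near the middle of the shared promoter.

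The remaining histone summits were weaker, and most lay inside a gene. The pair of his-60 and his-59 held a summit between the genes (137 in replicate 1, 71.1 in replicate 2) and another 84 bp inside his-60 (188 and 138). The pair of his-31 and his-32 held summits 95 bp inside his-32 (179.7 and 122) and 295 bp past its 5' end (103 and 70.4). The summit of his-4 and his-3 lay 106 bp past the 5' end of his-4 (88.5 and 86.0), and that of his-63 and his-64 lay 296 bp past the 5' end of his-64 (66.4 and 83.2). In all, 5 of the 8 histone summits lay past a 5' end, against 16 of the other 207 members (7.73%, 4.48 to 12.2%). Histone genes are near-identical copies, and the central 51 bp of 1 of these 8 summits, the second of his-31 and his-32, occurred at 2 places in the genome, while that of every other member was found once. How the authors placed reads of repeated sequence is not given in the sources used here, so which copy this peak belongs to is uncertain. Only exact copies were counted, so the same doubt may hold for the other histone peaks.

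Genes of cytosolic ribosomal proteins and of translation factors were frequent among the members. The gene lists are given as counts of genes in neighbouring head-to-head pairs that carried a divergent peak, beside 421 of 5072 for all coding genes (8.30%, 7.56 to 9.09%). Cytosolic ribosomal protein genes had 21 of 48 (43.8%, 29.5 to 58.8%), on 19 peaks with a median signal of 245. Translation factor genes had 8 of 25 (32.0%, 14.9 to 53.5%) and mitochondrial ribosomal protein genes 5 of 25 (20%, 6.83 to 40.7%). Aminoacyl-tRNA synthetase genes had 1 of 15 (6.67%, 0.169 to 31.9%), ears-2. The intervals of these last 2 lists include the share of all coding genes. With any promoter peak, divergent ones included, there were 31 of 80 cytosolic ribosomal protein genes and 13 of 44 translation factor genes. All coding genes had 872 of 19973 (4.37%). The counts therefore do not show a trait particular to divergent promoters. The genes of a list share peaks in some pairs, and the counts are a description of this list of peaks. Since the 21 lists were chosen with earlier results of these data known, no interval of a list serves as a test.

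The ribosomal protein genes with the strongest divergent peaks were rpl-15 and rpl-20, described above. In 2 pairs both genes encode ribosomal proteins. The summit of rps-14 and rpl-36 lay 262 bp from the first and 401 bp from the second, with 159.9 in replicate 1 and 93.3 in replicate 2. That of rps-10 and rpl-24.1 had 60.2 in replicate 1 and 94.4 in replicate 2 and lay 405 bp from a snoRNA gene. For the 17 peaks with a ribosomal protein gene on a single side, the summit was nearer to that gene in 6 and nearer to its partner in the others, at a median of 281 bp from the ribosomal protein gene and 172 bp from the partner. A count of ribosomal protein genes near peaks therefore includes many whose neighbour was closer to the summit.

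Among translation factors, the summit of erfa-3, the release factor eRF3, and math-33 had 243 in replicate 1 and 203 in replicate 2. That of iff-2, the translation factor eIF5A, and F54C9.14 had 206 and 184. Here the summit was nearer to the translation factor gene in 6 of 8 peaks. Among mitochondrial ribosomal protein genes, mrpl-45 (150.2 and 165) and mrpl-12 (129 and 122) had the highest signals.

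Protein folding and nuclear transport genes were found at shares like that of translation factor genes. Heat shock and chaperonin genes had 11 of 33 (33.3%, 17.96 to 51.8%), led by dnj-29 and hsp-60, and nuclear transport genes had 8 of 25 (32.0%, 14.9 to 53.5%). The summit was nearer to the heat shock or chaperonin gene in 5 of 12 peaks, and at hsp-60 the partner was nearer. The summit of npp-14, a nucleoporin gene, and cel-1, the mRNA capping enzyme gene, had 183 in replicate 1 and 153 in replicate 2, and lay 284 bp from the first and 52 bp from the second. That of dvc-1 and ima-1, an importin alpha gene, had 176 and 149.9 and lay 47 bp from dvc-1 and 297 bp from ima-1. The summit was nearer to the transport gene in 0 of the 8 peaks of this list, at a median distance of 293 bp from its 5' end and 51.5 bp from that of the partner. It lay between both 5' ends in 6 of the 8 and past the partner's 5' end in the other 2.

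Genes acting on chromatin and RNA followed. Chromatin regulator genes had 6 of 20 (30%, 11.9 to 54.3%), led by lin-53, a histone-binding RbAp48 relative, beside nra-2 (172 in replicate 1, 169 in replicate 2). Jmjd-4, a jumonji domain gene of the same list, shared its peak with mev-1, the cytochrome b subunit gene of succinate dehydrogenase (152 and 112). In the list of spliceosome and SR proteins there were 7 of 28 (25%, 10.7 to 44.9%), led by snr-1 and prp-19, the latter with 253 in replicate 1 and 173 in replicate 2. The summit was 629 bp from prp-19 and 46 bp from its partner K10D2.5, and at snr-1 the partner was also nearer. Of the peaks with a list gene on a single side, the summit was nearer to the splicing gene in 2 of 5. For chromatin regulator genes it was nearer to the list gene in 2 of 6. The SR protein genes rsp-2 and rsp-1 form a pair of 2 list genes, and their peak had 123 in replicate 1 and 59.5 in replicate 2. RNA polymerase and Mediator genes had 3 of 16 (18.8%, 4.05 to 45.6%), with mdt-26 (145 and 123) and mdt-19 (112 and 114) highest.

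Vesicle traffic genes had 7 of 36 (19.4%, 8.19 to 36.0%), led by snx-13 and by arf-6, a small GTPase gene (186 and 139). Oxidative phosphorylation genes had 3 of 25 (12%, 2.55 to 31.2%), with mev-1 and atp-1, the ATP synthase alpha subunit gene (112 and 89.2), highest. The citric acid cycle list had 1 of 9, idhg-1, and mitochondrial import 1 of 5, the adenine nucleotide translocase gene ant-1.1 (93.1 and 111). Proteasome genes had 2 of 22 (9.09%), rpn-7 (142 and 128) and rpn-3 (112 and 83.8), the latter in a pair with the chaperone gene hsp-110. The cell cycle and replication list had 3 of 40 (7.50%), cdk-9 (168 and 163) and cdc-6 among them, and DNA repair 1 of 13, polh-1. The lists were made from gene names, so the place of cdk-9 in this list does not show a cell cycle role. Of the lists given so far, the intervals of cytosolic ribosomal protein, translation factor, chaperone, nuclear transport, chromatin and splicing genes lay above the 8.30% of all coding genes, counted by genes, and above the 8.28% of all pairs, counted by pairs. That of histone genes lay above only when counted by genes, and those of the others included both values. The 21 lists were chosen with earlier results of these data known, so this split is a description and not a test. With any promoter peak, divergent ones included, there were 16 of 61 chaperone, 10 of 40 nuclear transport, 15 of 76 chromatin and 8 of 47 splicing genes. All coding genes had 872 of 19973 (4.37%).

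Chemoreceptor genes, a large family known mainly for roles in sensory neurons, seldom carried a divergent peak. They had 5 of 272 (1.84%, 0.599 to 4.24%), an interval wholly below 8.30%. Promoter peaks of any class, divergent ones included, were also few, at 7 of 1270 chemoreceptor genes beside 4.37% of all coding genes. Nuclear hormone receptor genes had 2 of 43 (4.65%, 0.568 to 15.8%), nhr-47 and nhr-142, an interval that includes 8.30%. The 5 chemoreceptor peaks had a median signal of 368, above the median of all members. For sri-5 and sre-1, which have the highest of these, the partner genes are given above, and a name given by nearness does not tell which gene a peak belongs to. The homeobox list had 2 of 12, ceh-38 (96.1 in replicate 1, 54.5 in replicate 2) and unc-40, a netrin receptor gene that the name pattern took in and that is no homeobox gene (57.8 and 94.8). The C2H2 list had 1 of 5, ztf-9 (106 and 96.8). At least 1 list gene stood beside 97 of the 215 peaks (45.1%). Genes known only by a sequence name were 113 of the 422 nearest genes (26.8%), against 45.3% of all coding genes.

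Chromosome X carried few divergent peaks and many one-direction peaks. It held 6 of the 215 divergent peaks (2.79%, 1.03 to 5.97%) and 118 of the 441 one-direction peaks (26.8%, 22.7 to 31.1%). The X holds little divergent promoter sequence, 3.93% of its promoter windows by length against 11.7% on autosomes. Per Mb of such sequence X had 39.9 summits and autosomes 79.4, a ratio of 0.503, whereas in one-direction windows X had 32.1 and autosomes 16.3, a ratio of 1.97. Divergent density exceeded one-direction density 1.24 times on X and 4.88 times on autosomes.

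Chromosome V was the closest autosome to X, with 41.4 divergent summits per Mb, but its one-direction density was 8.97. Chromosomes III and I had the highest divergent densities, 108 and 106 per Mb. Of the neighbouring head-to-head pairs, 6 of 174 on X had a peak (3.45%, 1.28 to 7.35%) and 204 of 2362 on autosomes (8.64%, 7.53 to 9.84%), and these intervals did not overlap. Low shares were not confined to X, since chromosome V had a peak at 29 of 656 pairs (4.42%, 2.98 to 6.29%), also wholly below the interval of the autosomes together. In the relaxed list of the pooled replicates, which also holds background, a summit lay between the 5' ends of 37.9% of these pairs on X and 35.6% on autosomes. Of the pairs with such a relaxed summit, 6 of 66 on X carried a divergent IDR peak (9.09%, 3.41 to 18.7%), against 17.7% on chromosome V and 26.5% on chromosome I, the lowest and highest of the autosomes. The small count of 6 sets the precision of each of these values.

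**Figure D4:**
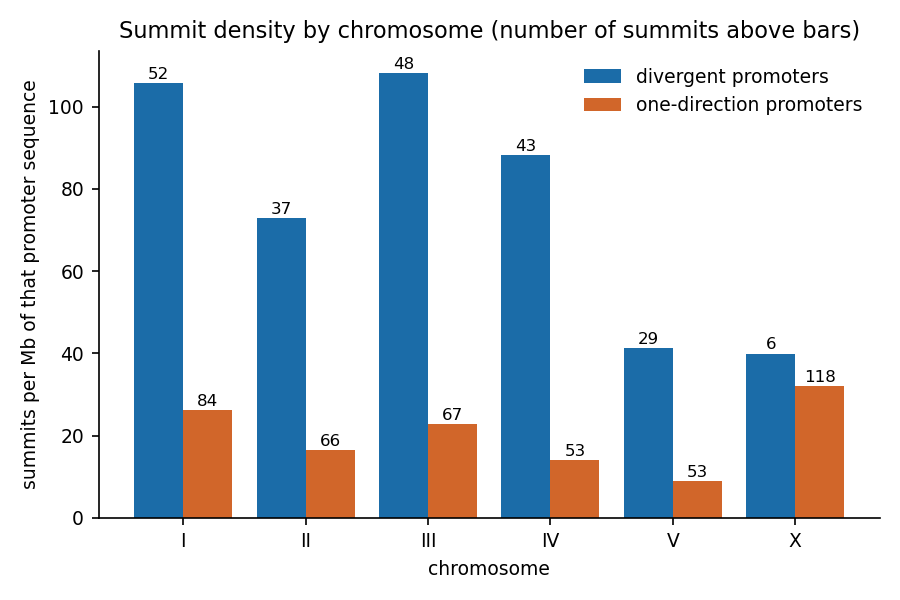
Summits per Mb of divergent and of one-direction promoter sequence (y axis) on each chromosome (x axis), with the number of summits above each bar. On X the 6 divergent summits give 39.9 per Mb and the 118 one-direction summits 32.1 per Mb, while chromosome III has 108 and 22.8.

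The 6 members on X, named after this count was seen, had moderate signals. The highest, between dnj-14, a DnaJ co-chaperone gene, and glit-1, had 151 in replicate 1 and 146 in replicate 2. That of snrp-40.1 and F08G12.3 had 137 and 145, and that of mboa-7 and git-1 126 and 108. The other 3 lay at trap-2 and ile-2 (90.6 and 93.4), at R04E5.9 and cnnm-2 (88.2 and 95.9), and at cdk-4, the G1 cyclin-dependent kinase gene, and F18H3.1 (77.9 and 82.2). These values lie within the range of the members on autosomes, and the replicates lay close together at each.

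Divergent summits were local peaks of G and C content. Within 50 bp of the summit G and C made up 48.5% of bases on average (SD 7.76, n = 215 peaks), 36.3% in flanks from 200 to 300 bp away and 34.0% at the middle of head-to-head pairs without a peak. One-direction summits had 50.1% (SD 7.84, n = 441 peaks). In windows of 21 bp the mean was 50.96% at the divergent summit and fell to 32.0% at 120 bp on the left and 29.9% on the right, below the level farther out. At one-direction summits the corresponding values were 52.2%, 40.02% and 39.1%. The level at the summit was therefore similar, and the fall to 120 bp on either side was larger in divergent promoters. Around the middle of pairs without a peak the values at 120 bp were 33.8% on the left and 33.9% on the right. Peak recovery in ChIP-seq can depend on base composition, and its part in this pattern was not tested.

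**Figure D5:**
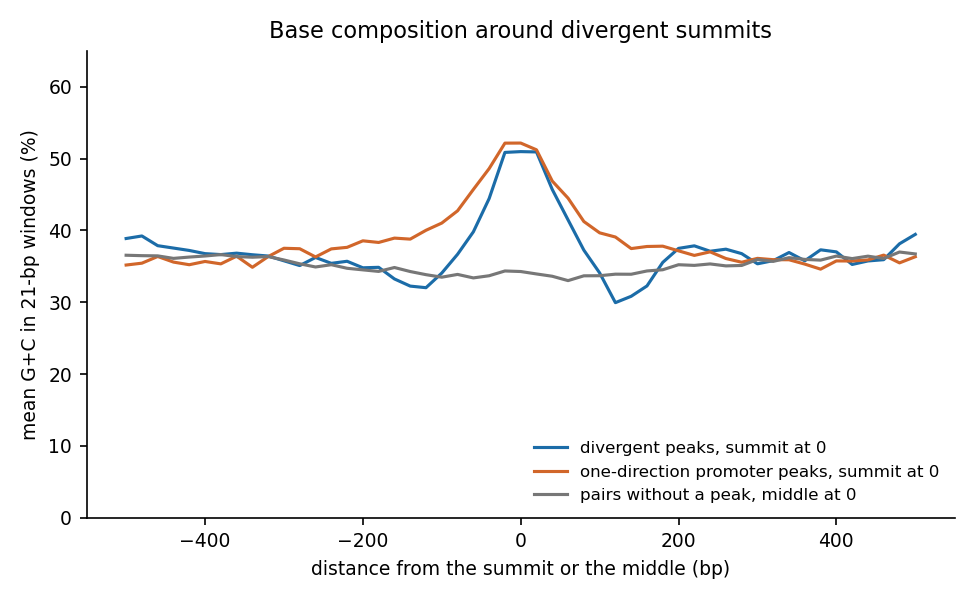
Mean G and C content (y axis, % of bases in 21 bp windows) against distance from the summit (x axis, bp) for divergent peaks, one-direction promoter peaks and, around their middle, head-to-head pairs without a peak. Divergent summits reach 50.96% at 0 bp and 29.9% at 120 bp to the right, and pairs without a peak run from 33.0% to 37.0%.

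Known promoter motifs were then counted within 50 bp of each summit on both strands. The GC box GGGCGG was present at 35 of the 215 divergent summits (16.3%, 11.6 to 21.9%), at 9.52% of one-direction summits, 1.63% of flanks and 2.32% of the middles of pairs without a peak. CGCGCG was present at 9.77%, 7.71%, 0.698% and 1.93% in the same order. Not every motif rich in G and C was more frequent at divergent than at one-direction summits. GCGGGAA, read by E2F factors, was at 1.40% of divergent summits, 4.99% of one-direction summits and 1.63% of flanks, and CCACCC at 1.86%, 5.67% and 0.930%. These are few matches, at 4 divergent summits and 4 of 430 flanks for CCACCC, and at 3 and 7 for GCGGGAA. The intervals at divergent summits, 0.509 to 4.69% and 0.289 to 4.02%, include the shares of flanks. The other E2F motif counted, GCGCGAA, was at 7 divergent summits (3.26%, 1.32 to 6.59%), 10 one-direction summits (2.27%) and 3 flanks (0.698%). Its interval includes the share of one-direction summits and lies above that of flanks. These motifs rich in A and T were fewer at the summits. TATAAA, the TATA box, was present at 7 divergent summits (3.26%) against 10% of flanks and 14.2% of pairs without a peak. TGATAA, read by GATA factors, was at 2.33% against 10.5% of flanks, and TTTTCAG, a splice acceptor and trans-splice site, at 5.58% against 18.8% of flanks. The differences of the GC box, CGCGCG and the motifs rich in A and T go in the direction of the base composition above, whose part was not tested, and a motif match is not a bound site.

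The repeat GAGAGAG was at 6.51% of divergent and 11.1% of one-direction summits, against 2.09% of flanks. The cell cycle element TTTGAA, called CHR, was at 17.2% of divergent summits and 25.1% of flanks. The A box and the B box of RNA polymerase III genes were at 0 of 215 divergent summits, with an exact 95% interval up to 1.70% each, and at 7 and 2 of the 441 one-direction summits. Summits near tRNA genes had been left out by the rule.

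Most of the 12 recurring words were rich in G and C, and several overlap each other. AGTGCGC was found at 27 divergent summits (12.6%), 6.12% of one-direction summits, 0 of 430 flanks and 1.16% of pairs without a peak. AAGTGCG, which overlaps it by 6 bases, was at 25. GCCGCAC was at 26 (12.1%), against 5.44% of one-direction summits, and GCGCCGC was at 21 (9.77%), against 3.40%. GCACACA was at 23 (10.7%), against 10.2%, and CGCACAC, which overlaps it, was at 21. CTCCGCC was at 21, as was CCGCCCA, and AAACGCG was also at 21. CTTGCAA was at 20 (9.30%), against 3.85%, the word AATGCGC was at 20, and so was CTGGCGC. Both CTCCGCC and the word CCGCCCA overlap the reverse strand of the GC box, which is CCGCCC. At least 1 of the 12 was present at 119 of the 215 divergent summits (55.3%, 48.4 to 62.1%), at 41.0% of one-direction summits, 8.14% of flanks and 11.5% of pairs without a peak. The lower share in one-direction peaks is biased by the choice of words from the divergent windows.

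Members with certain words had higher signals. The 26 peaks with GCCGCAC had a median signal of 344 (quartiles 255 and 567), and the 189 without it 207 (167 and 294). Peaks with CTCCGCC had a median of 329 and those without it 209, and CTTGCAA gave 321 and 209. AGTGCGC, the most frequent, gave 279 and 208, and GCACACA gave 206 and 220. The windows of atx-2, ears-2 and idhg-1 printed above each hold GCCGCAC or its reverse complement. These medians are across peaks of 1 list and were not tested.

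Few members lay near other small RNA genes. A snoRNA gene was the nearest within 500 bp for 7 members, a microRNA gene for 3 and an snRNA gene for 2, 12 of 215 in all (5.58%, 2.92 to 9.55%), against 30 of 441 one-direction peaks (6.80%). The strongest of these, between chst-1 and C41C4.9, had 358 in replicate 1 and 326 in replicate 2 and lay 34 bp from the snoRNA gene C41C4.11. The next, between ska-3 and rps-12, had 300.2 and 226 and lay 260 bp from F54E7.10. At the peak of eef-1A.1, the translation elongation factor gene, and rfc-4 the summit fell inside cel-mir-5549, and at that of smn-1 and klp-16 inside cel-mir-4932. These genes were named after their values were seen. Without the 12 peaks the median signal of the members was 219, against 198 for one-direction peaks without a small RNA gene.

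More than 1 peak fell in 4 of the 211 pairs. Besides the histone pairs his-60 and his-59 and his-31 and his-32, these were dnj-29 and ndua-2, with a second peak (149.7 in replicate 1, 135 in replicate 2) 185 bp upstream of ndua-2, and Y41D4A.6 and Y41D4A.4. At the last pair both IDR peaks (267 and 234 in the IDR list) matched the same peak of each replicate list, so they are not separate measurements there. One of its summits had the lowest G and C content of all members, 20.8%.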

How the data were processed

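ChIP-seq peak lists of 2 biological replicates, forming 1 group, were analysed on ce11. Signal values were deposited by the authors, 1 per peak. The relaxed lists, called against a control, hold 30000 peaks per replicate and for the pool, and the IDR list was derived from them, per the file headers and names. The aligner, peak caller, IDR threshold and signal scaling were not given in the sources used here, and depth is unknown. The ce10 lists were not used.

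Summits were compared with 5' ends of protein-coding genes from Ensembl release 115, whose assembly WBcel235 is ce11. Sequence came from the RefSeq genome of that assembly. Replicate peaks were matched by an overlap of at least 50% of either peak. Intervals are exact Clopper-Pearson at 95%, and no p-value was computed. Relative density used the union of all windows of each class. The classes and matching were tested on simulated data.

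Named genes are the 20 strongest divergent peaks with no small RNA gene within 500 bp, up to 2 per gene list, pairs with both genes in 1 list, and the 3 shortest and 3 longest distances, unless stated otherwise. The 21 gene lists, the 21 motifs and the members were chosen with earlier results of these data known. The 2 counts on chromosome X were added after seeing the data. Software was SciPy 1.17.1 and pandas 2.3.3 under Python 3.11.15, with NumPy 2.4.6, and Matplotlib 3.10.9 for figures.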

Additional observations from a re-analysis of the deposited data

How the results depend on the processing

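No paired analysis was possible because the study has 1 group. With a promoter window of 500 bp upstream, divergent peaks were 28.0% of promoter peaks, the density ratio was 7.34, the median distance between 5' ends 396.5 bp, G and C content 47.7% and the log2 signal difference from one-direction peaks 0.14. Among the 711 strongest peaks there were 119 members, of which 3 were on X beside 59 one-direction peaks there, with a median signal of 298.6, a density ratio of 4.75, G and C content of 49.4% and a log2 difference of 0.11. Without replicate 1 and without replicate 2, on the scale of a single replicate, the median signal was 109.7 and 123, the log2 difference 0.13 and 0.11, the density ratio 3.84 and 4.13, and G and C content 48.3% and 47.8%. The log2 difference was 0.14 without peaks near any small RNA gene and 0.10 with the 5' ends of all transcripts. The density ratio was 3.79 with peaks near tRNA genes kept. G and C content was 51.1% within 25 bp and 43.2% within 100 bp of the summit. By summits within 100 bp, 98.1% of members were matched in replicate 1. In each of these settings the density ratio stayed above 1 and the log2 difference above 0. Of the 91 values recomputed for these results 67 stayed within the spread set for them and 24 moved, and of the 42 motif shares in narrower or wider windows 23 moved. The 67 include the setting of head-to-head pairs only, whose values could not move, since all 215 members are head-to-head. They also include a fall from 215 to 150 members with a window of 500 bp upstream. The density ratio for head-to-head pairs only was not run. A single group of 2 replicates, an unknown depth and the lack of a list from another tagged protein limit all values.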
